A study of Mus musculus with 18 samples.

Results

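The 10 genes described here are immediate-early transcription factor genes of 3 families: Fos, Fosb, Jun, Junb, Jund and Atf3 of the AP-1 group, Egr1, Egr2 and Egr3 of the EGR family, and Nr4a1 of the NR4A family. They were chosen by name, with earlier results of these data known, and every probe carrying one of these names was used. The names in the scanner files matched 9 genes and 13 probes, and Jund was found through its accession under the older symbol Jund1. This gave 14 probes for 10 genes, of 43426 probes and 25589 genes on the arrays. Fos, Junb, Atf3 and Egr3 had 2 probes each and the others had 1.

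The study hybridised RNA of thymus cells of mice to 18 Agilent arrays of 1 colour, 1 array per sample. C57BL/6 mice had been given anti-DLL4, which is directed at a Notch ligand needed for T-cell development, or an isotype control, and thymi were taken 2 weeks later. The 6 groups were anti-DLL4 and control total thymocytes (3 and 4 arrays), anti-DLL4 and control DN cells, which had been sorted for the absence of both CD4 and CD8 (3 and 3 arrays), and anti-DLL4 and control DN1 cells, the DN fraction with CD44 and without CD25 (3 and 2 arrays). The series text counts 4 animals per antibody and 3 control samples of thymocytes. The labels list 4 such samples, and all were used. No source ties arrays to animals or gives the age of the mice, so p-values measure only the spread between these samples. DN and DN1 cells had been stained and sorted and total thymocytes had not, so sorting and population cannot be told apart in comparisons between populations.

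Immediate-early genes are transcribed within minutes of a stimulus, through transcription factors already present in the cell such as SRF with its ternary complex partners and CREB. FOS and JUN proteins pair to form the AP-1 factor, ATF3 is a stress-inducible partner of JUN proteins, EGR proteins are zinc-finger factors, and NR4A1 (Nur77) is an orphan nuclear receptor. In the thymus these genes are known as targets of pre-T-cell receptor and T-cell receptor signals, and they are also known to respond to tissue dissociation and cell sorting.

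Promoter sequence was taken from RefSeq (GRCm38.p6), where 8 of the 10 genes had a window from 250 bases before to 50 bases after a transcript start. Egr1 and Egr3 had none. The 120 bases upstream of the start are printed for the genes whose differences are described most closely below, with matches to 3 motifs in capitals: TGACG, the core of the cAMP-response element bound by CREB, the SRF-binding CArG box and the EGR site GCGGGGGCG, each searched on both strands. The 4 stretches, each written 5′ to 3′ along its gene, are as follows.
Atf3 (chr1:191183334-191183453, minus strand): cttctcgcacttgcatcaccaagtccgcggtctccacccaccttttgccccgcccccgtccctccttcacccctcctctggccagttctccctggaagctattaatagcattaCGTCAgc
Egr2 (chr10:67537749-67537868, plus strand): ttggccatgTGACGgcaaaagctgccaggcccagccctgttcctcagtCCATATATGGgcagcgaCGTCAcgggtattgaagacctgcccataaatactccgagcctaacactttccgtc
Fos (chr12:85473770-85473889, plus strand): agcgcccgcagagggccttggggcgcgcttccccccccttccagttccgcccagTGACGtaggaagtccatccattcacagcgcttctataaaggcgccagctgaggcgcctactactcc
Nr4a1 (chr15:101266726-101266845, plus strand): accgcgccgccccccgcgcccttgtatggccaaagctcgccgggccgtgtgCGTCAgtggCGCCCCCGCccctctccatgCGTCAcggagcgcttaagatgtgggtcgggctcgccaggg

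The TGACG core was present in the windows of 6 of the 8 genes (Fos, Fosb, Junb, Atf3, Egr2 and Nr4a1), and 20.9% of all 32544 windows held it on one strand or the other. A CArG box was found in Egr2 alone, which had 5 of the 12 windows of these genes where each other gene had 1, and in 1.64% of all windows. The EGR site GCGGGGGCG was found in Fosb and Nr4a1 and in 2.93% of all windows. Neither the full cAMP-response site TGACGTCA (1.80% of windows), which contains that core, nor the AP-1 site TGAGTCA (5.19%) nor the second EGR site searched, GCGTGGGCG (0.618%), was found in these windows. A match is a match of letters and not evidence of binding, and sites more than 250 bases before a start were not searched.

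The probes of a gene can read different parts of its transcript, and 2 coding probes, of Fos and Atf3, are printed whose values differed from those of the other probe. The Egr3 probes differed more from each other in DN cells, as given below, and are not printed. The deposited files place probes on the mm8 build. The first Fos probe (A_51_P333146) spanned 177 bases on chromosome 12, with a gap of 117 bases that its 60 letters skip, and lay 1117 bases from the second (A_52_P262219). The first Atf3 probe (A_51_P293789, chromosome 1) lay 6567 bases from the second (A_52_P452689). Their sequences, with no letters set apart, are as follows.
Fos A_51_P333146 (chr12:86364759-86364935, plus strand): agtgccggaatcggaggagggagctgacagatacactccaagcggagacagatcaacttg
Atf3 A_51_P293789 (chr1:192877910-192877969, minus strand): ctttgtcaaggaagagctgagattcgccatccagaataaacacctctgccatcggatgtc

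Levels below are log2 of the processed signal minus the 75th percentile of that array, called the scaled log2 signal. This is a level within an array and cannot be compared between probes. The 75th percentile itself, a measure of array strength, ran from 260.2 to 4295.4 intensity units, and the 3 anti-DLL4 DN arrays (741.3 to 1076.8) were all brighter than the 3 control DN arrays (260.2, 337.9 and 675.5). A gene with more than 1 probe is given by its brightest unless stated. Differences are printed as log2 differences relative to the median over every gene tested, with their standard error (SE). That median was -0.47 in thymocytes, -0.68 in DN cells and -0.01 in DN1 cells. A gene was called at a limma adjusted p under 0.05. The limma tests were made on each difference before that median was subtracted, so each p-value belongs to the unshifted value. Nr4a1 in DN cells, for example, is printed as 2.46 and was tested as 1.78. For Cd8a, which codes for a CD8 chain, the median scaled log2 signal was 6.63 in control thymocytes, 3.25 in control DN cells and 4.10 in control DN1 cells. It was well above background on all of these arrays. Against control thymocytes Cd8a was called lower in control DN cells (-4.14, limma adjusted p = 0.0483) and was not called in control DN1 cells. Il2ra, which codes for CD25, had a median of 1.54 in control DN cells and -1.45 in control DN1 cells, also well above background throughout. It was not called between these groups.

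Atf3 rose after anti-DLL4 in total thymocytes and in DN cells, Egr2 and Egr3 rose in DN cells, and no gene of the 10 passed the test in DN1 cells. The other genes mostly had differences above 0 in thymocytes (9 of 10 in all, Jund being the exception) and in DN cells (10 of 10), which did not pass. In thymocytes 1 of the 10 genes, Atf3, rose, against 1.12% of all 20929 genes tested that were called higher. In DN cells 3 of 10, Atf3, Egr2 and Egr3, rose, against 2.74% of 20865 genes called higher. In DN1 cells 0 of 10 were called by limma, with 0 at an unadjusted p under 0.05, and 0.0956% of 21967 genes were called in either direction. The median difference over the 10 genes was 1.75 in thymocytes, 2.65 in DN cells and 0.27 in DN1 cells, where the median of all tested genes is 0 by construction. Before that shift the medians were 1.28, 1.97 and 0.26.

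**Figure D1:**
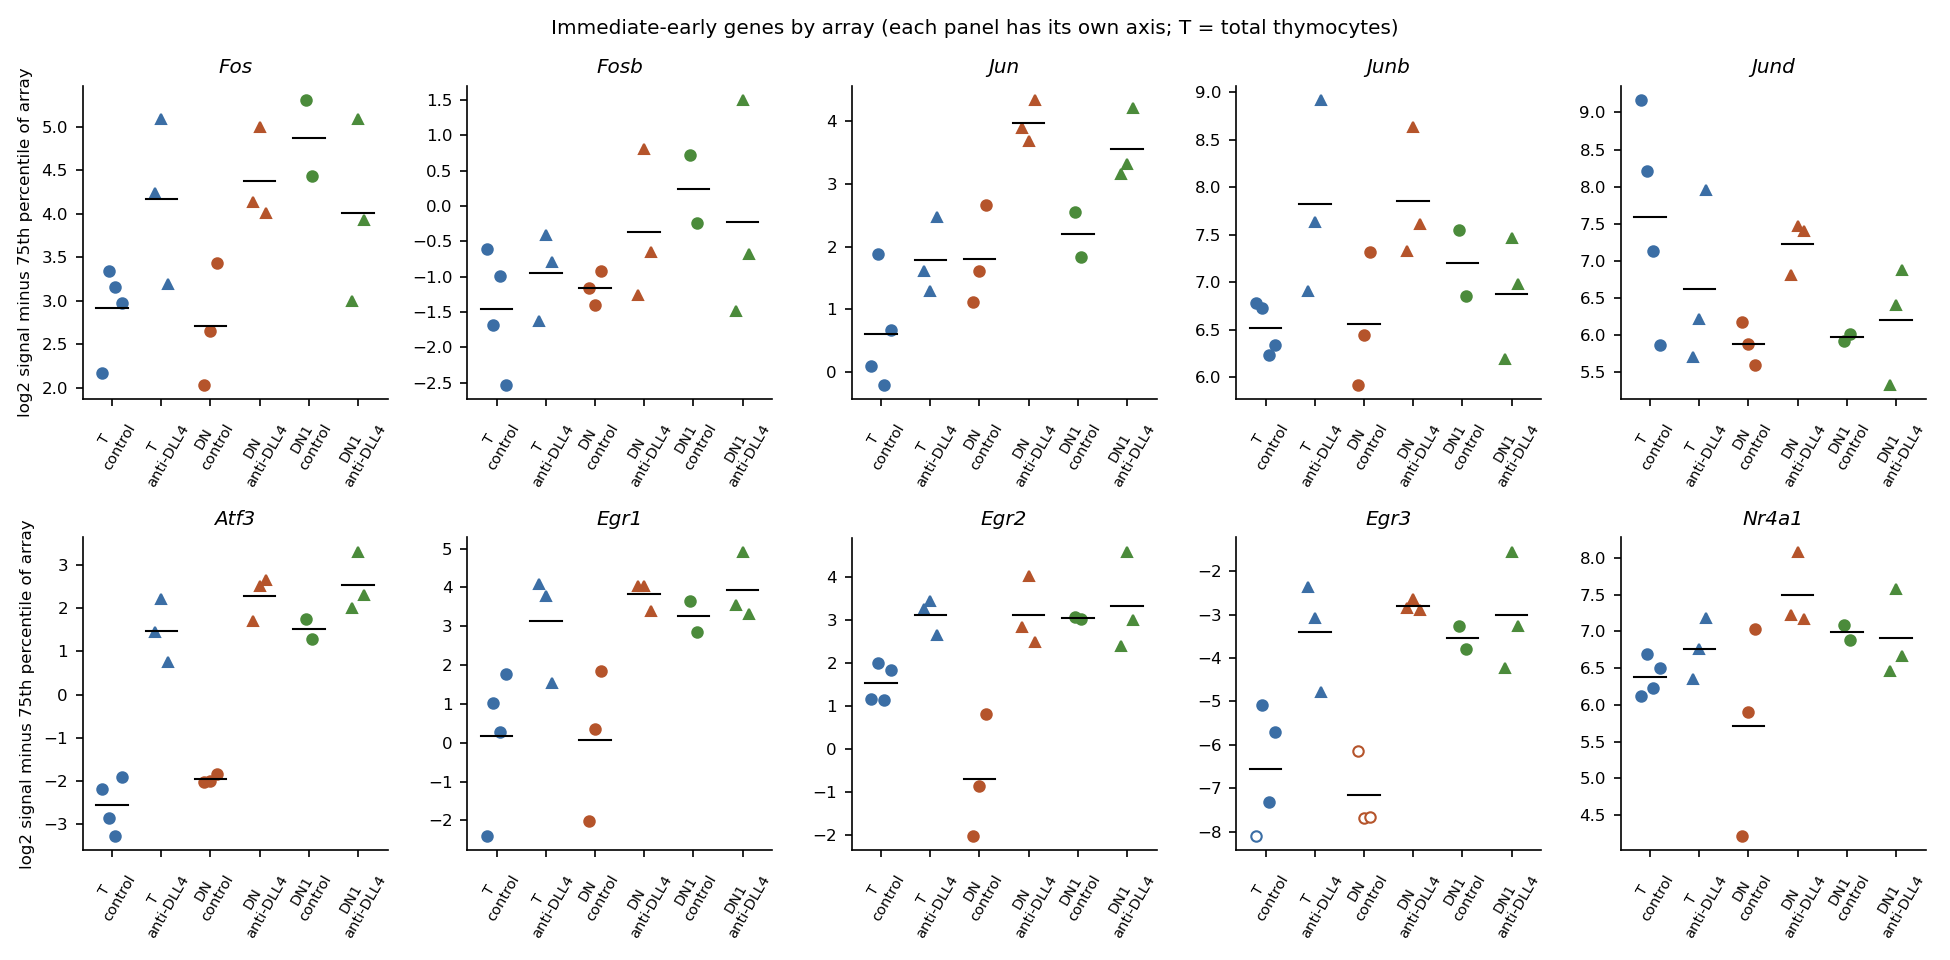
Scaled log2 signal (log2 signal minus the 75th percentile of the array) of the brightest probe of each gene on the 18 arrays, by population and antibody; circles are control arrays, triangles anti-DLL4 arrays, bars group means, and open symbols arrays on which the probe was not well above background. Each panel has its own vertical axis; the Atf3 panel shows control thymocytes and control DN cells between -3.28 and -1.83, below all other arrays.

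**Figure D2:**
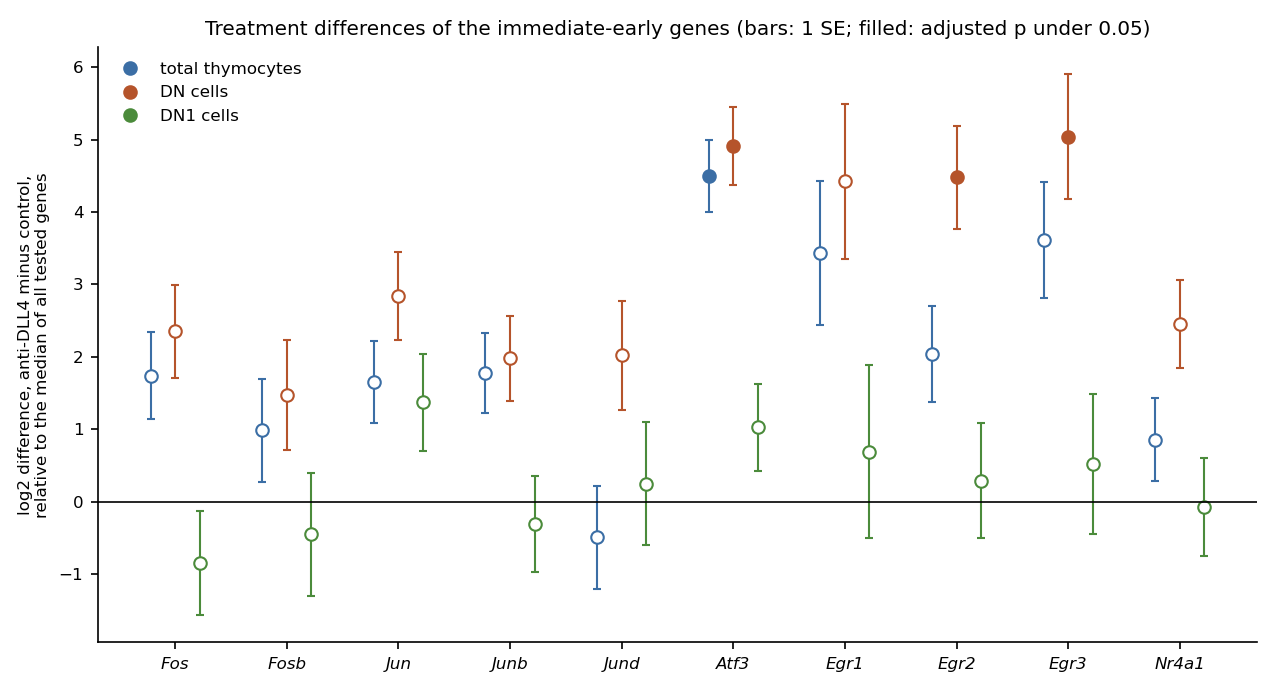
Log2 difference between anti-DLL4 and control arrays, relative to the median over every gene tested, for each gene in thymocytes, in DN cells and in DN1 cells; bars are 1 SE and filled points have an adjusted p under 0.05. The filled points are Atf3 in thymocytes (4.50) and Atf3, Egr2 and Egr3 in DN cells (4.91, 4.48 and 5.04). The Egr3 point in DN cells is a fitted value against control arrays on which the probe was not well above background. The bound on the processed signal of that probe is at least 7.42-fold.

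Among the AP-1 genes, Atf3 differed most between treated and control arrays. Its scaled log2 signal in thymocytes was 1.44, 2.21 and 0.75 after anti-DLL4 against -2.19, -2.85, -3.28 and -1.91 in controls. In DN cells it was 1.70, 2.52 and 2.64 after anti-DLL4 against values between -2.01 and -1.83 in the 3 controls. In both populations every treated array lay above every control array, with a gap wider than the spread within either group. The difference was 4.50 ± 0.50 (SE) in thymocytes (limma, adjusted p = 0.000908) and 4.91 ± 0.53 in DN cells (adjusted p = 0.000408). In DN1 cells the values were 2.00, 3.31 and 2.29 after anti-DLL4 against 1.75 and 1.28 in controls. The DN1 groups did not overlap but both stood at the level of treated thymocytes and treated DN cells, and the difference of 1.02 ± 0.60 did not pass the test.

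The coding probe of Atf3 printed above gave smaller and more scattered differences. It read -0.72, -1.22 and 0.75 in anti-DLL4 thymocytes against -3.31, -4.57, -3.47 and -2.28 in controls, and these groups did not overlap. In DN cells it read -3.67, -1.55 and -0.40 after anti-DLL4 against -3.37, -4.14 and -4.79 in controls, so 1 treated array fell among the controls. Tested among all probes, its differences were 3.43 in thymocytes (limma, adjusted p = 0.124) and 2.87 in DN cells (adjusted p = 0.149), in the same direction as the other probe but not called. In DN1 cells it was -1.38, opposite in sign to the other probe.

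Fos, the inducible partner of JUN proteins in AP-1, was 4.24, 5.09 and 3.20 in treated thymocytes against 2.17, 3.34, 3.17 and 2.98 in controls. In DN cells it was 4.13, 4.997 and 4.02 after anti-DLL4 against 2.04, 2.65 and 3.44 in controls. The thymocyte groups overlapped through treated replicate 3, and the DN groups did not overlap. The differences of 1.74 ± 0.60 in thymocytes and 2.35 ± 0.64 in DN cells did not pass the test (limma, adjusted p = 0.326 and 0.11). In DN1 cells Fos was 3.00, 5.09 and 3.93 after anti-DLL4 against 5.31 and 4.43 in controls, a difference of -0.86 ± 0.72. Its probe with the gap gave 2.83 in thymocytes (adjusted p = 0.34), where anti-DLL4 replicate 3 read 1.35 on it against -2.86 for replicate 1, the reverse of their order on the other probe.

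Fosb, a FOS family member with similar induction, did not separate the groups in any population. It ran from -1.63 to -0.41 in treated thymocytes against a range from -2.53 to -0.61 in controls, and from -1.26 to 0.81 in treated DN cells against a range from -1.40 to -0.92 in controls. The differences were 0.98 ± 0.71 in thymocytes, 1.47 ± 0.76 in DN cells and -0.45 ± 0.85 in DN1 cells, all short of the threshold.

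Jun, the core AP-1 subunit, was 3.88, 3.68 and 4.33 in treated DN cells against 1.12, 1.62 and 2.67 in controls. It was 1.61, 1.29 and 2.47 in treated thymocytes against 0.10, 1.87, -0.20 and 0.67 in controls. The DN groups were apart and the thymocyte groups overlapped through control replicate 2. The DN difference of 2.84 ± 0.60 fell just short of the threshold (limma, adjusted p = 0.0546), and that in thymocytes was 1.65 ± 0.56 (adjusted p = 0.331). Jun had the widest DN1 difference of the 10 genes, 1.37 ± 0.67, from 3.15, 3.32 and 4.20 after anti-DLL4 against 2.56 and 1.84 in controls, again without overlap and without passing the test.

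Junb, a JUN family member often induced together with Fos, was 6.91, 7.64 and 8.92 in treated thymocytes against 6.78, 6.73, 6.24 and 6.34 in controls, so the groups lay close but did not overlap. In DN cells it was 7.33, 8.63 and 7.61 after anti-DLL4 against 5.92, 6.44 and 7.32 in controls, so the lowest treated array barely cleared the highest control. The differences were 1.77 ± 0.55 in thymocytes (limma, adjusted p = 0.269) and 1.98 ± 0.59 in DN cells (adjusted p = 0.152). Its 2 probes share 22 bases and gave similar differences, 1.78 and 1.72 in thymocytes and 2.52 and 1.94 in DN cells when all probes were tested.

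Jund, the JUN member that is expressed constitutively rather than induced, was the exception in thymocytes. It ran from 5.71 to 7.95 after anti-DLL4 against a range from 5.86 to 9.16 in controls, a difference of -0.49 ± 0.71. In DN cells it was 6.80, 7.47 and 7.40 after anti-DLL4 against 6.18, 5.88 and 5.59 in controls, with no overlap and a difference of 2.02 ± 0.76 (limma, adjusted p = 0.234). The treatment difference was larger in DN cells than in thymocytes by 2.65 ± 1.04, which did not pass the test of that difference (adjusted p = 0.576).

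Of the 3 EGR genes, Egr2 and Egr3 were called in DN cells and Egr1 was not. In DN cells Egr1 read 4.03, 4.05 and 3.39 after anti-DLL4 against -2.01, 0.37 and 1.86 in controls. In thymocytes it was 4.08, 3.78 and 1.53 after anti-DLL4 against -2.40, 1.04, 0.28 and 1.78 in controls. Its control arrays were widely spread in both populations, and in thymocytes treated replicate 3 fell below the highest control. The differences of 4.43 ± 1.07 in DN cells (limma, adjusted p = 0.059) and 3.44 ± 1.00 in thymocytes (adjusted p = 0.157) did not pass the test.

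Egr2, which acts with Egr1 and Egr3 in developing T cells, was 2.82, 4.02 and 2.50 in treated DN cells against -2.01, -0.86 and 0.81 in controls. It was 3.24, 3.43 and 2.64 in treated thymocytes against 1.17, 2.01, 1.15 and 1.83 in controls. Both pairs of groups were apart. The difference was called in DN cells, 4.48 ± 0.71 (limma, adjusted p = 0.00654), and not in thymocytes, 2.04 ± 0.66 (adjusted p = 0.267). The difference between these 2 effects, 2.58 ± 0.97, did not pass its own test (adjusted p = 0.563).

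Egr3 was read by its brightest probe (A_52_P440836) at -2.84, -2.64 and -2.91 in anti-DLL4 DN cells, while none of the 3 control DN arrays read it well above background. It therefore has only a bound, and on the processed signal of this probe stood at least 7.42-fold higher in treated DN cells. For the bound, each control array was given the dimmest value that counted as well above background on it, or the probe's own value where that was higher, and the treated mean was set against the mean of these. The fitted difference was 5.04 ± 0.86 (limma, adjusted p = 0.00968). In thymocytes it was -2.36, -3.08 and -4.79 after anti-DLL4 against -8.10, -5.09, -7.31 and -5.70 in controls, with control replicate 1 not well above background. The groups did not overlap, and the difference of 3.61 ± 0.81 fell short of the threshold (adjusted p = 0.0654). The second Egr3 probe (A_51_P437198), 3092 bases away, ran the opposite way, at -0.87 in DN cells and -0.49 in thymocytes, and was well above background on 1 of 3 treated and 2 of 3 control DN arrays. The Egr3 result in DN cells thus rests on 1 of its 2 probes. It also depended on the background correction. With normexp background the Egr3 difference was 0.49 ± 0.66 (limma, adjusted p = 0.518).

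Nr4a1, widely used as a reporter of T-cell receptor signalling, was 7.22, 8.09 and 7.18 in treated DN cells against 4.21, 5.90 and 7.04 in controls. In thymocytes it was 6.35, 6.76 and 7.19 after anti-DLL4 against 6.12, 6.69, 6.23 and 6.50 in controls. The DN groups did not overlap, though control replicate 3 came close to the lowest treated array, and the thymocyte groups overlapped. The differences were 2.46 ± 0.61 in DN cells (limma, adjusted p = 0.0908), 0.85 ± 0.57 in thymocytes and -0.08 ± 0.68 in DN1 cells, none of them called.

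In DN1 cells the EGR genes stood high on treated and control arrays alike. Egr1 read 3.55, 4.92 and 3.33 in treated DN1 cells and 3.66 and 2.85 in controls, Egr2 2.39, 4.58 and 3.00 against 3.07 and 3.02, and Egr3 -4.24, -1.55 and -3.26 against -3.26 and -3.80. All 3 pairs of groups overlapped, and the differences were 0.69 ± 1.19, 0.29 ± 0.79 and 0.52 ± 0.97. Nr4a1 (6.47, 7.58 and 6.67 against 7.09 and 6.89), Junb (6.20, 7.46 and 6.98 against 7.55 and 6.86) and Jund (5.33, 6.41 and 6.87 against 5.92 and 6.01) overlapped too. Treated DN1 replicate 2 was the highest of its group for Fos, Fosb, Junb, Atf3, Egr1, Egr2, Egr3 and Nr4a1, and replicate 1, the dimmest of the 3 arrays (977.7), was the lowest of the group for Fos, Fosb, Jun, Junb, Jund, Atf3, Egr2, Egr3 and Nr4a1.

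Counted by separation alone, every treated array lay above every control array for 4 of 10 genes in thymocytes (Junb, Atf3, Egr2 and Egr3), against 5.05% of all genes tested. In DN cells this held for 9 of 10 genes, all but Fosb, against 9.64% of all genes tested. In DN1 cells it held for 2 of 10, Jun and Atf3, against 8.64%. Of the 3 control DN arrays, replicate 3 was the highest for Fos, Fosb, Jun, Junb, Atf3, Egr1, Egr2 and Nr4a1, and it was also the brightest array of the 3.

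The Egr2 and Egr3 calls in DN cells held whichever single array was left out, with limma adjusted p up to 0.0355 and 0.0468. They did not hold without control DN replicates 1 and 2 together, which leaves 1 control array. The Egr2 difference then fell from its 4.48, while that of Egr3 did not fall from its 5.04 and its SE grew from 0.86. Without control DN replicates 1 and 2, the 2 dimmest arrays, 1 of 10 genes was called in DN cells, Atf3 at 4.47 ± 0.78 (limma, adjusted p = 0.0304), with the remaining control array assumed to vary like the other groups. Egr2 was then 2.65 ± 0.84 (adjusted p = 0.369) and Egr3 5.22 ± 1.24 (adjusted p = 0.123), and the median over the 10 genes was 1.82. Without control DN replicate 3, 7 of 10 were called (Fos, Jun, Atf3, Egr1, Egr2, Egr3 and Nr4a1), and without anti-DLL4 thymocyte replicate 3, which shares in the estimate of the spread, 5 were. In thymocytes, leaving out anti-DLL4 replicate 3 added Egr3 to Atf3 (4.58, adjusted p = 0.0479). The Atf3 call held in both populations with its brightest probe, whichever single array was left out and under every other setting tried, from 3.47 to 5.13 in thymocytes and from 4.09 to 5.56 in DN cells.

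**Figure D3:**
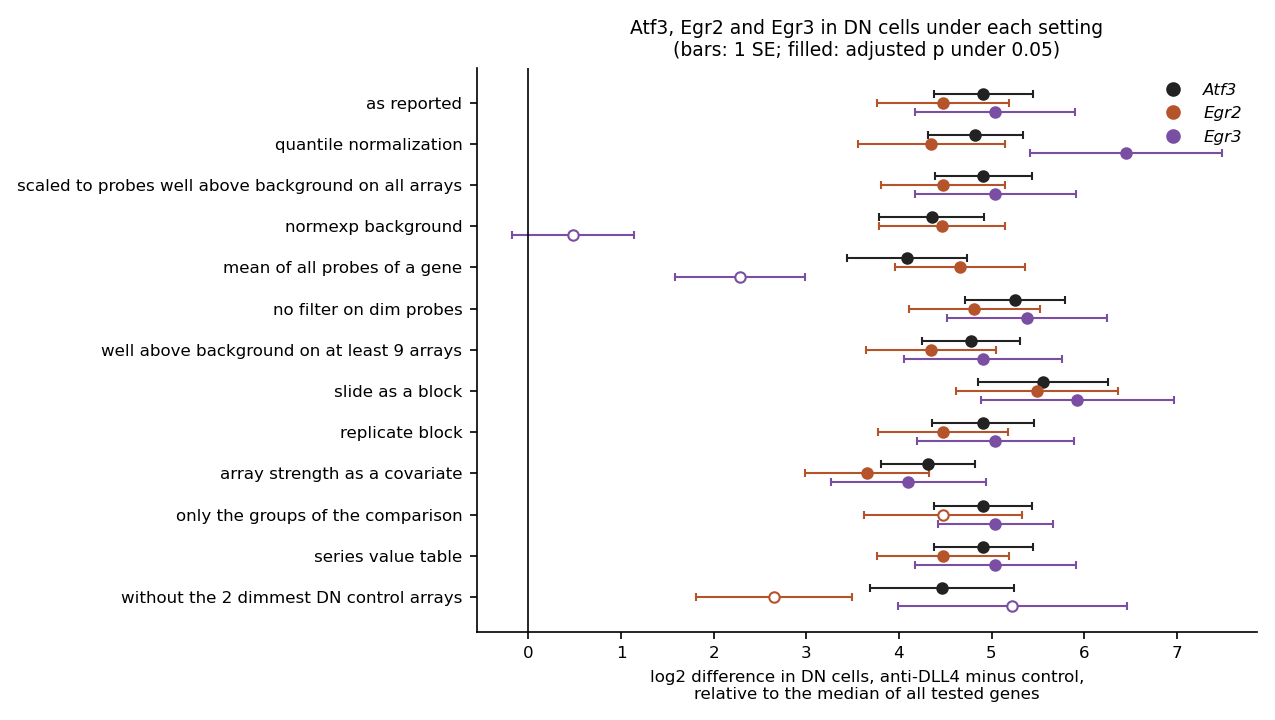
Log2 difference in DN cells, relative to the median over every gene tested, for Atf3, Egr2 and Egr3 under each processing setting; bars are 1 SE and filled points have an adjusted p under 0.05. Atf3 is filled under all settings, Egr2 is open when only the groups compared enter the fit (4.48) and without the 2 dimmest control arrays (2.65), and Egr3 is open with normexp background (0.49), with the mean of its probes (2.29) and without the 2 dimmest control arrays.

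The treatment differences in DN1 cells lay below those in DN cells for all 10 genes, with a median of -2.85 for the difference between effects. By limma 0 of 10 were called, with 4 at an unadjusted p under 0.05, against 0.212% of 22689 genes called. For Atf3 the difference between effects was -3.86 ± 0.80 (adjusted p = 0.143) and for Egr2 -4.17 ± 1.06 (adjusted p = 0.245). Without control DN replicate 3, Egr2 was called in that comparison, at -5.07 ± 0.96 (adjusted p = 0.0332). Between DN1 cells and thymocytes 0 of 10 were called, with a median of -1.91 (0.119% of 22633 genes called), and between DN cells and thymocytes 0 of 10, with a median of 1.23 (0.0224% of 22331 genes called). At an unadjusted p under 0.05 these last comparisons held 2 and 2 of the 10 genes. With all arrays in the fit, none of these differences between effects was called for any of the 10 genes.

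In control mice the 10 genes stood higher in DN1 cells than in DN cells, by a median of 2.56 and in 10 of 10 genes. Atf3 (4.24 ± 0.60; limma, adjusted p = 0.00931) and Egr2 (4.51 ± 0.79; adjusted p = 0.0317) were called, 2 of 10 against 1.11% of 21749 genes called higher. On the processed signal of its brightest probe Egr3 was at least 4.45-fold higher, with a fitted difference that was not called (limma, adjusted p = 0.0851). Leaving out either of the 2 control DN1 arrays ended both calls, leaving out control DN replicate 1 or 2 left 1, and leaving out both of those left 0. Both calls also ended with array strength as a covariate (Atf3 2.94, adjusted p = 0.106; Egr2 2.72, adjusted p = 0.359), slide as a block, normexp background or only the groups compared, and the Egr2 call ended with the replicate block (adjusted p = 0.0571). Against control thymocytes, control DN1 cells had Atf3 higher by 4.49 ± 0.57 (adjusted p = 0.00247), 1 of 10 against 0.983% of 21159 genes called higher. That call ended without control DN1 replicate 1 and with slide as a block (4.04, adjusted p = 0.166). Control DN cells against control thymocytes gave 0 of 10 calls by limma, with 2 at an unadjusted p under 0.05 (Jund lower by -2.07 and Egr2 by -2.59) and 1.28% of 21637 genes called. Without control DN replicate 3, Egr2 was called there, at -3.43 (adjusted p = 0.012).

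Ordered by group mean, the groups of lowest scaled log2 signal were control thymocytes and control DN cells for Fos, Fosb, Junb, Atf3, Egr1, Egr2, Egr3 and Nr4a1. For Jun the lowest were the 2 thymocyte groups, and for Jund control DN and control DN1 cells. Neighbours in that order mostly overlapped: in Fos, Fosb, Junb, Jund and Egr1 all 5 pairs of neighbouring groups did. In Atf3 the one clear step was from anti-DLL4 thymocytes (mean 1.47) to control DN cells (mean -1.95). Egr2 had 2 steps, from control DN1 cells (3.04) to control thymocytes (1.54) and from these to control DN cells (-0.69).

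Array strength moved with some of these genes. Over the 18 arrays the correlation of the scaled log2 signal with log2 of the 75th percentile was 0.70 for Egr2, 0.68 for Fos, 0.65 for Egr1, 0.57 for Egr3, 0.46 for Atf3 and 0.39 for Nr4a1. It was 0.26 for Fosb, 0.05 for Jun and for Junb, and -0.32 for Jund. After the 6 group means were subtracted, it was 0.73 for Fos, 0.72 for Egr1, 0.52 for Egr2, 0.50 for Egr3, 0.43 for Atf3 and -0.64 for Jund. The mean of the 10 genes gave 0.52, while the median over 22877 genes was -0.32, with quartiles of -0.64 and 0.10. These arrays share slides, amplification and treatment groups, so the values only describe them, and the part of array strength in the differences of the 10 genes was not tested beyond the fit that follows. With array strength as a covariate Atf3 was 4.17 in thymocytes and 4.32 in DN cells, Egr2 3.65 in DN cells (limma, adjusted p = 0.0161) and Egr3 4.10 (adjusted p = 0.0275), and these treatment calls held. The same covariate ended both calls of control DN1 against control DN cells, Atf3 and Egr2.

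**Figure D4:**
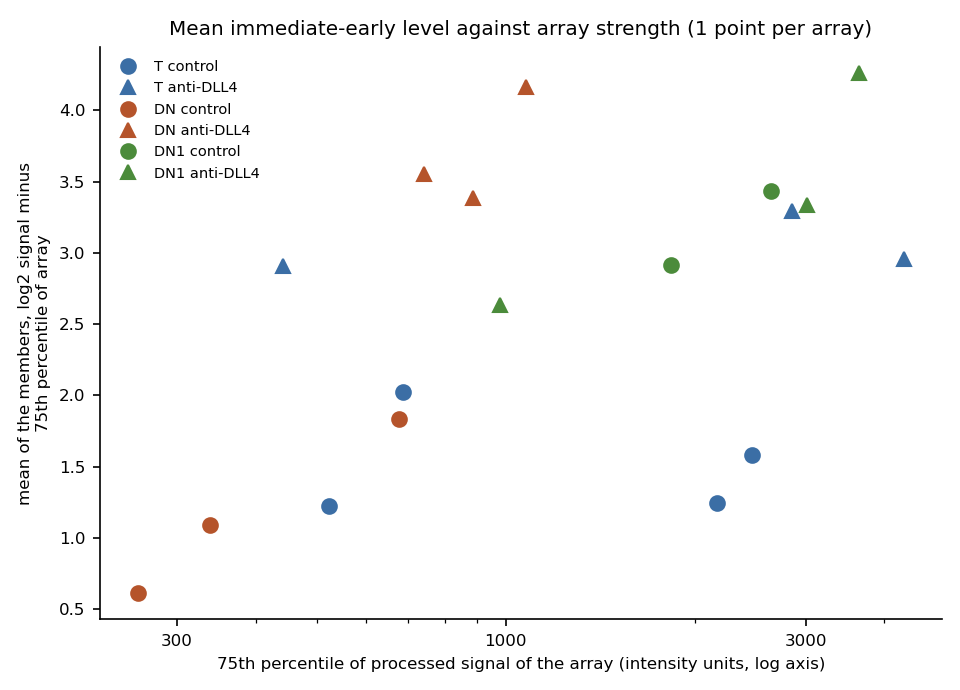
Mean scaled log2 signal of the 10 genes against the 75th percentile of processed signal of each array (intensity units, log axis), 1 point per array, coloured by population, with circles for control and triangles for anti-DLL4. The 3 anti-DLL4 thymocyte arrays lie at 2.91 to 3.29 with 75th percentiles from 442.8 to 4295.4, the 4 control thymocyte arrays at 1.22 to 2.03 between 524 and 2468.1, and the 3 control DN arrays at 0.61, 1.09 and 1.83 with 260.2, 337.9 and 675.5.

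Arrays of a treated and a control sample shared a slide in 3 cases for thymocytes, 1 for DN cells and 2 for DN1 cells. Within thymocyte slides the median difference over the 10 genes was 3.13, 2.21 and 1.00. On the third of these slides the treated array was the dimmer one (442.8 against 2169.2), and Atf3 differed by 3.65 there, against 4.96 and 5.93 on the other two. Fos (-0.34) and Fosb (-0.18) lay below the median of all tested genes on that slide, and Egr1 differed by 0.88 there against 7.82 and 3.62 on the other slides. Before that median was subtracted, Fos (3.20 against 3.17) and Fosb (-0.79 against -0.99) were slightly higher on the treated array. Over the 10 genes the median difference was 4.08 within the DN slide, which holds the dimmest control array, and 1.07 and 0.45 within the DN1 slides. Each of these is 1 array against 1 array and has no test.

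The 10 genes rose and fell together over the arrays to differing degrees. The closest pair was Atf3 with Egr3 (Pearson r = 0.90 over 18 arrays, and 0.43 after the 6 group means were subtracted). Egr2 with Nr4a1 had r = 0.84 and kept it within groups (0.86), as did Fos with Egr2 (0.83 and 0.82). Jund stood apart, with r from -0.39 (Egr1) to 0.32 (Junb). Of the 14039 other genes well above background on all arrays, Ier2, itself an immediate-early gene, was most like the mean of the 10 genes (r = 0.97, and 0.91 within groups). Next came Cyb561a3 (0.96, and 0.81 within groups), Gpr183 (0.96 and 0.89), Ncf4 (0.95 and 0.70) and H2-Q1 (0.95 and 0.62). Most like single members were Fam174a, Bahd1 and Mapkapk3 for Fos (0.89, 0.88 and 0.88), Tdrd7, Dusp1 and Evi2a for Egr1 (0.97, 0.96 and 0.96), Rassf4, Plek and Bhlhe40 for Atf3 (0.96, 0.96 and 0.95), and Itpr3, Myo1g and Dmac2 for Nr4a1 (each 0.90). Within groups, in the same order, r was 0.69, 0.73 and 0.87 for Fos and 0.91, 0.93 and 0.95 for Egr1. It was 0.30, 0.69 and 0.67 for Atf3 and 0.89, 0.88 and 0.84 for Nr4a1. These are descriptions over arrays that share their groups, and the median r of all genes compared with the mean of the 10 was -0.23.

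Other immediate-early and early-response genes mostly differed in the same direction in thymocytes and DN cells. No test compared them with the genes described above. Their differences lay above 0 for 36 of 39 in thymocytes, 35 of 38 in DN cells and 29 of 38 in DN1 cells. Of all genes tested, 1.12% were called higher in thymocytes and 2.74% in DN cells. Of 39 other immediate-early and early-response genes, 2 rose in thymocytes, Ier3 (4.09) and Rgs1 (3.97), with a list median of 1.36. In DN cells 18 of 38 rose, led by Plk2 (5.36), Ier5 (5.05) and Zfp36 (4.86), with a median of 2.64, and 2 did without the 2 dimmest control arrays. In DN1 cells 0 of 38 were called by limma, with 4 at an unadjusted p under 0.05 and a median of 0.21. The thymocyte count ran from 1 (without any of 8 single arrays) to 4 (without anti-DLL4 replicate 3) when single arrays were left out. The DN count fell to 11 without anti-DLL4 replicate 1 or 3 or control replicate 1 or 2, was 12 without anti-DLL4 replicate 2, and ran from 14 to 21 without any other array. Fitting only the groups compared gave 1 and 4.

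Further lists hold relatives of the 10 genes and genes that act before them, and no test compared these lists with the 10 genes. Their counts stand against 1.12% of all genes called higher in thymocytes and 2.74% in DN cells. Of 17 other AP-1 family genes, 1 rose in thymocytes, Fosl2 (4.02), and 1 in DN cells, Crem (3.27), and 0 were called in DN1 cells, with 0 at an unadjusted p under 0.05. Of 6 other EGR and NR4A genes and their corepressors, 0 were called by limma in any population, with 0, 0 and 1 at an unadjusted p under 0.05. Heat-shock genes, 14 of them tested, gave no call in the 3 populations, with medians of 0.55 in thymocytes, 0.51 in DN cells and -0.17 in DN1 cells, and 2, 0 and 0 at an unadjusted p under 0.05. Of 26 upstream kinases and factors, 1 rose in thymocytes, Mef2c, which was well above background on 1 of 4 control arrays. In DN cells 1 of 26 rose, Map2k1 (3.53), and 1 fell, Mrtfb, which was well above background on 1 of 3 treated arrays. With 1 gene in each count, nothing is read from these shares. Of genes linked to T-cell receptor signalling, 0 of 20 were called in thymocytes (3 at an unadjusted p under 0.05), with a median of 0.63. In DN cells 4 of 19 rose, including Ccr7 (4.77), Id2 (4.41) and Cd69 (3.75), with 11 at an unadjusted p under 0.05, but 10 of 19 lay above 0 and the median was 0.17. In DN1 cells 1 of 20 fell, Pdcd1 (-4.41), with 10 at an unadjusted p under 0.05 and a median of -1.60.

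**Figure D5:**
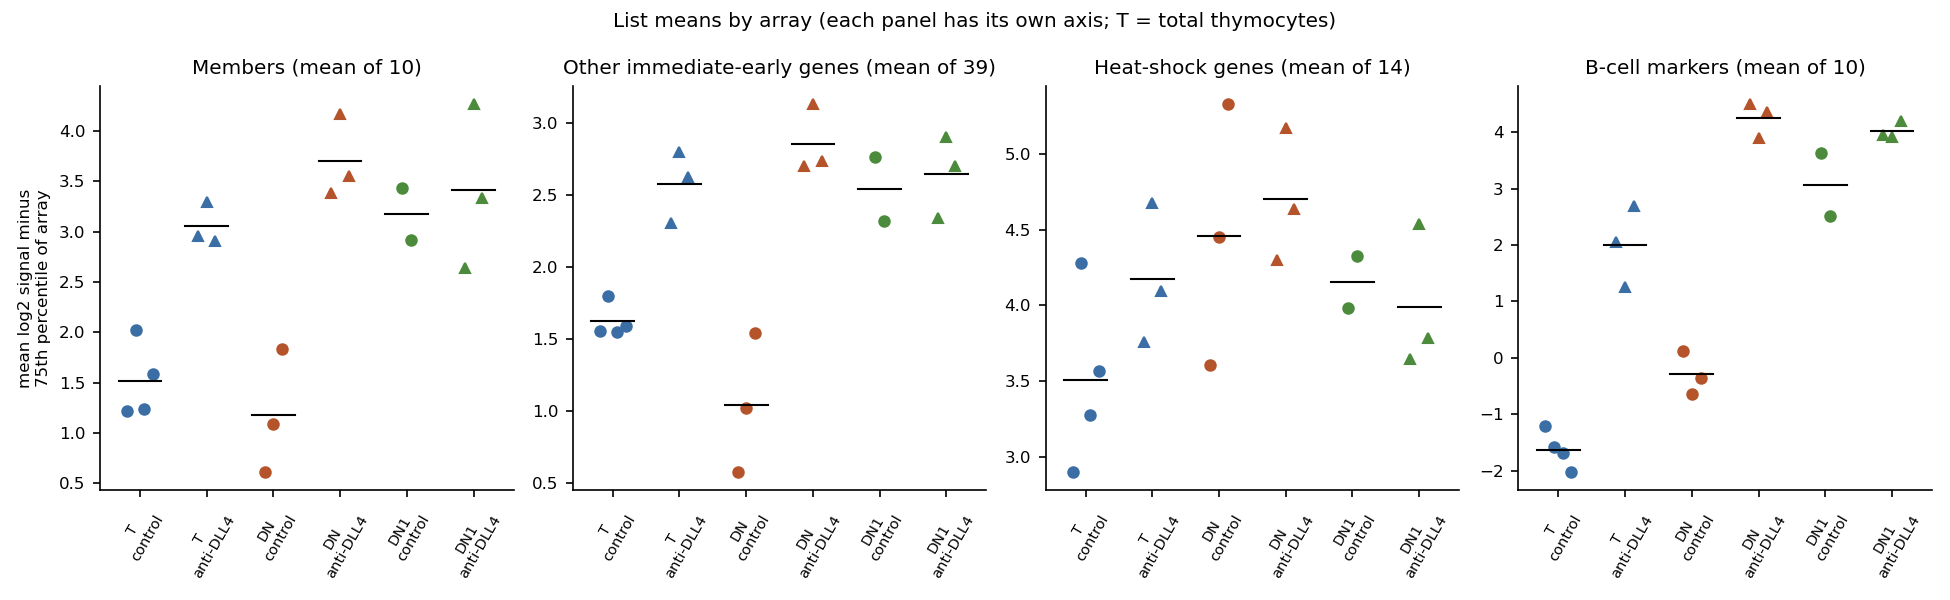
Mean scaled log2 signal of the 10 genes, of 39 other immediate-early genes, of 14 heat-shock genes and of 10 B-cell markers on each array, by population and antibody; circles are control arrays, triangles anti-DLL4 arrays and bars group means, and each panel has its own vertical axis. In the first, the second and the last panel the 2 lowest groups are control DN cells and control thymocytes. Per array, these groups have means of 0.58 to 1.54 and 1.55 to 1.80 for the other immediate-early genes. Their B-cell means are -0.64 to 0.11 and -2.02 to -1.21. The heat-shock values overlap between treated and control arrays in all 3 populations.

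Markers of other cell types changed in the same comparisons. Of 10 B-cell markers, 8 rose in thymocytes and 9 in DN cells, among them Fcrla (4.64 and 6.69), and 0 were called in DN1 cells, where 1 had an unadjusted p under 0.05. Their mean scaled log2 signal ran from 1.26 to 2.69 in anti-DLL4 thymocytes, and between 3.89 and 4.49 in anti-DLL4 DN cells, and it was 2.51 to 3.63 in control and 3.91 to 4.21 in anti-DLL4 DN1 cells. Pax5, the defining factor of B cells, was well above background on 0 of 4 control thymocyte arrays, on 1 of 3 control DN arrays and on all arrays of the other groups. It stood at least 48.5-fold higher in treated than in control thymocytes. Of 8 natural killer markers, 4 rose in thymocytes and 4 in DN cells, of 9 dendritic markers 1 and 3, and of 11 monocyte and macrophage markers 1 and 3, with none called in DN1 cells. In control mice 6 of the 10 B-cell markers were called higher in DN1 than in DN cells, against 1.11% of 21749 genes. So were 2 of 8 natural killer, 2 of 9 dendritic and 2 of 11 monocyte and macrophage markers, and 0 of 6 neutrophil markers. Atf3 and Egr2 were called higher in that comparison too. The part of these cell types in the differences of the 10 genes was not tested, and in such mixed RNA fewer cells of a type and less RNA per cell cannot be told apart.

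Of 6 neutrophil markers, 0 were called by limma in thymocytes, DN cells and DN1 cells, with 0, 0 and 1 at an unadjusted p under 0.05 and medians of 0.44, -0.33 and -4.51. Of 3, 4 and 4 erythroid markers tested, 0 were called, with 1, 4 and 1 at an unadjusted p under 0.05 and medians of 2.14, -3.61 and 2.03. Of 10 epithelial, fibroblast and endothelial markers Pdgfrb was the one called, lower in thymocytes (-6.42, well above background on 2 of 3 treated arrays) and in DN cells (-3.58). Of 10 early T-lineage markers 3 fell in DN cells, Ptcra (-2.75), Notch3 (-2.25) and Tcf7 (-2.07), and 0 were called in thymocytes and in DN1 cells, with 1 and 4 at an unadjusted p under 0.05.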

How the data were processed

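The scanner files hold, per the file headers, a background-subtracted Cy3 intensity for each spot with its mean and background intensity, made with Agilent Feature Extraction, whose version is 9.5 in the submitters' processing notes. Nothing had been scaled between arrays. Per the labels, RNA went through 2 rounds of amplification. Other deposited columns used were flags for background, saturation and outliers. The deposited value matrix of the whole series holds a ratio per probe, and log2 of that deposited ratio was used as an alternative.

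From these, log2 of the processed signal minus the 75th percentile over non-control spots of each array was computed. Control and outlier spots were left out. Genes well above background on at least 2 arrays entered 1 model of 6 group means (limma 3.58.1 in R 4.3.3, package data.table, release 1.17.8), with two-sided p-values and Benjamini-Hochberg adjustment over all genes tested. The median over all genes tested was subtracted from the printed differences after the test, and the p-values were left as they were. The code was tested on simulated data, in which 92 tested genes were changed by 2 log2 units and 88 by 4 in DN cells, among 22877 genes. Of these, 3.26% and 48.9% were called, with right signs. That simulation gave 47 calls in all, against 898 in the real DN comparison. Its shares are therefore not the detection rates of the reported comparison.

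The members and lists were chosen with earlier results of these data known. The rule for named genes took all 10 members, at most 3 called genes per list and comparison, and the genes most like the members' mean or single members. Where probes of 1 gene differed, the brightest stood for it. Figures were drawn with matplotlib 3.10.9. One marker result is not reported here.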

Additional observations from a re-analysis of the deposited data

How the results depend on the processing

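Of the counts of called members under alternatives other than leaving out single arrays, 102 kept within 1.5 times the reported count and 11 did not. In DN cells the count of 3 became 5 with normexp background and 1 without the 2 dimmest control arrays, an alternative chosen after seeing the data; in thymocytes 1 became 2 with quantile normalization, which added Junb (2.30, adjusted p = 0.0482). In control DN cells against thymocytes 0 became 2 with normexp (Jund and Egr3). In control DN1 against DN cells 2 became 0 with normexp, slide as a block, array strength as a covariate, only the groups compared, and without the 2 dimmest arrays; in control DN1 cells against thymocytes 1 became 0 with slide as a block. Leaving out single arrays gave 3 to 7 called members in DN cells, 1 to 2 in thymocytes, 0 to 2 and 0 to 1 in control DN1 against DN cells and against thymocytes, 0 to 1 in control DN cells against thymocytes and in the DN1 minus DN effect, and 0 in the other comparisons.

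Several uncalled DN1 treatment differences changed sign: Junb to 0.027 and Nr4a1 to 0.24 with quantile normalization, Nr4a1 to 0.14 with normexp and 0.068 with slide as a block, and Atf3 to -0.19 and Egr3 to -0.77 with the mean of all probes. Leaving out single arrays, these differences crossed 0 for Fosb (-1.44 to 0.38), Junb (-0.73 to 0.23) and Nr4a1 (-0.54 to 0.34) without anti-DLL4 DN1 replicate 1, for Egr2 (-0.47 to 0.96) and Egr3 (-0.33 to 1.34) without replicate 2, and for Jund (-0.17 to 0.88) without replicate 3. Jun in control DN1 against DN cells became -0.11 without the 2 dimmest arrays. The cause of these changes was not tested.

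Whether replicate numbers pair the samples was not settled. Same-numbered arrays of 1 population correlated from -0.49 to 0.11 in 8 pairs. These pairs set anti-DLL4 against control mice, so they cannot show pairing by animal. Same-numbered arrays of different populations correlated from -0.54 to 0.52 in 32 pairs, 13 of them above 0.1. Those of different populations under the same antibody ran from -0.15 to 0.52. Of the 18 arrays, 8 correlated best with an array of their own number. With the replicate number as a block, the control DN1 against DN count became 1 (Egr2 adjusted p = 0.0571) and no other count moved. The median of all genes moved with scaling, in DN cells from -0.68 to -0.14 with quantile normalization, -0.81 with a percentile over probes detected on all arrays and -1.05 with normexp. Signal over background limits Egr3, and 2 to 4 arrays per group limit all comparisons.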
